A study of Arabidopsis thaliana with 12 samples.

Results

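The homeodomain-leucine zipper (HD-Zip) class I factors are plant transcription factors that pair a DNA-binding homeodomain with a leucine zipper through which they form dimers. The genes described here were taken from the expression tables by a list of loci: HB1 (AT3G01470), HB3 (AT5G15150), HB5 (AT5G65310), HB6 (AT2G22430), HB7 (AT2G46680), HB12 (AT3G61890), HB16 (AT4G40060), HB21 (AT2G18550), HB40 (AT4G36740) and HB53 (AT5G66700). They are 10 of the 37336 genes in the tables, and 10 of the 17 class I genes looked up.

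The study measured mRNA by sequencing in seedlings of Arabidopsis thaliana, wild type Col-0 (WT) or homozygous transgenic Col-0 plants that carry CsPYL1_5m. This transgene is a version of the sweet orange abscisic acid (ABA) receptor CsPYL1 with 5 changes, made to respond more strongly to a synthetic agonist, and it is driven in all tissues by the 35S promoter with the plants' own receptors still present. Seedlings received either 5 µM of the agonist iSB09 or a mock treatment of 0.1% DMSO for 3 h, which gave 4 groups of 3 samples, 12 in all. The age was 12 days in the sample labels and 10 days in the study's methods. The sources used here do not say how many transgenic lines these samples came from, so the transgene and its insertion cannot be told apart, and whole seedlings were used, so more RNA per cell and more cells of a type cannot be told apart in any value below.

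Class I factors bind a pseudopalindromic site, CAATNATTG, and many of them respond to ABA, drought or light. ABA bound to a PYR/PYL receptor inhibits the clade A PP2C phosphatases, which frees SnRK2 kinases to activate bZIP factors at the ABA-responsive element with the core ACGTG. HB7 and HB12, a pair of close paralogs, are known to be induced by water deficit and ABA and to act on phosphatase and receptor genes, whereas HB6 binds the phosphatase ABI1 and is a negative regulator of ABA responses. HB21, HB40 and HB53 are known from axillary buds, where they act downstream of the branching regulator BRC1 and raise the ABA synthesis gene NCED3.

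Sequencing depth, recovered from the steps between values, was 21502003 to 30696833 reads per sample. All 6 CsPYL1_5m samples, at 25746050 reads or more, were deeper than all 6 WT samples, at 21754261 or fewer, so genotype and sequencing depth cannot be told apart. Green shoot markers (3 of 3 at 1 TPM or more in every group, summed level 12358 to 19015 TPM) and root markers (4 of 4, 3014 to 4274 TPM) were both present. The lowest green shoot sums were in the CsPYL1_5m samples with iSB09 (12358 to 15919.6 TPM, against 15813 to 18307 TPM with mock). Root sums were lower with iSB09 without overlap, at 3014 to 3548 TPM against 3845 to 4014 TPM in WT and at 3369 to 3700.1 TPM against 4098 to 4274 TPM in CsPYL1_5m. Most of these sums was PYK10, with means of 3186 TPM against 3864 TPM in WT and 3408 TPM against 4106 TPM in CsPYL1_5m. EXP7 was lower without overlap in WT only, and SCR in CsPYL1_5m only. The root marker TIP2;3 was called higher in both genotypes (log2 fold changes 2.69 and 1.89). Shoot apex markers (2 of 3 at 1 TPM, WUS under 1 TPM) summed to 10.6 to 12.3 TPM in CsPYL1_5m mock and 6.29 to 11.6 TPM with iSB09, and to 13.1 to 16.3 and 13.5 to 18.6 TPM in WT. Seed markers summed to at most 1.14 TPM in WT, with 0 of 6 at 1 TPM, and to 2.98 to 7.40 TPM in CsPYL1_5m, with 1 of 6 (SESA3) at 1 TPM. Most of that sum was SESA3, at 4.81 to 6.03 TPM in CsPYL1_5m mock, 2.67 to 4.11 TPM with iSB09 and 0 TPM in every WT sample. The part of these markers in the results was not tested.

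The windows before the genes are shown first, for the stretch that HB7 and HB12 share and for the ABA-responsive cores before HB6 and HB40. Coordinates are those of the TAIR10.1 assembly, gene starts are those of its RefSeq annotation, and each window is the 300 bases before the start, printed 5′ to 3′ on the gene's own strand, with positions counted back from the start (-1 is the base just before it). HB7 (chr2:19165274-19166967, minus strand) and HB12 (chr3:22914154-22915393, minus strand) shared a stretch of 22 bases, shown in capitals, that starts at -158 in HB7 and at -211 in HB12 and that was found in 2 of 27443 such windows of the genome. The longest stretch shared by any of the other 44 pairs of these genes was 11 bases.
HB7 (chr2:19166968-19167267, minus strand): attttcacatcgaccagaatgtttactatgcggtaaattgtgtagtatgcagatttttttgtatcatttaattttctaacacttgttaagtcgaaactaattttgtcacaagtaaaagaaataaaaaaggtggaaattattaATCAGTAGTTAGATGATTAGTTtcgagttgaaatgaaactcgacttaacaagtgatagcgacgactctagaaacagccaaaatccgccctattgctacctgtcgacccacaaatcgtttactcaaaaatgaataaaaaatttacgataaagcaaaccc
HB12 (chr3:22915394-22915693, minus strand): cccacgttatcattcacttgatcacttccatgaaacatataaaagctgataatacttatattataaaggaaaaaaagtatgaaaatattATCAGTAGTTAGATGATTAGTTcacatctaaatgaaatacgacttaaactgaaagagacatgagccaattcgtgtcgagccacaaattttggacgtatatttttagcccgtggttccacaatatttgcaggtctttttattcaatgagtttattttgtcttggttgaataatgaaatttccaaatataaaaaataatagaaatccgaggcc

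In the windows of HB6 (chr2:9525988-9527845, minus strand) and HB40 (chr4:17314453-17316441, minus strand), the capitals mark ACGTG on either strand, the core of the ABA-responsive element. HB6 held 1 match, at -283. HB40 held 4 matches, at -245, -244, -205 and -69, of which the overlapping pair at -245 and -244 is 1 G-box (CACGTG).
HB6 (chr2:9527846-9528145, minus strand): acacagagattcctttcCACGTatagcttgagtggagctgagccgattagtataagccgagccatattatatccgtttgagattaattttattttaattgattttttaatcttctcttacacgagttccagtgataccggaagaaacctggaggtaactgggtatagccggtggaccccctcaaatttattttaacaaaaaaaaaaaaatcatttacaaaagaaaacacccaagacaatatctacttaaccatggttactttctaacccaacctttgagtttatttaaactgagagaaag
HB40 (chr4:17316442-17316741, minus strand): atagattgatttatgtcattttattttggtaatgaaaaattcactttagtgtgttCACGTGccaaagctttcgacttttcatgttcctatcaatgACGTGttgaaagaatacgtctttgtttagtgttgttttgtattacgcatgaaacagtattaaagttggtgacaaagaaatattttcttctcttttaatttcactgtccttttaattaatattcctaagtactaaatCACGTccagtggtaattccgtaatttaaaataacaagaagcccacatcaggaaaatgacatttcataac

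ACGTG lay within 300 bases of the start in 4 of the 10 genes (HB5, HB6, HB12 and HB40), and in 25.6% of all 27443 windows. CACGTG lay there in HB40 alone of the 10, and in 7.09% of all windows. In the 1000 bases before the start, 8 of the 10 genes held ACGTG, against 54.4% of all windows, and HB3 and HB16 held none. The most matches there were in HB40 (5, with those at -245 and -244 in 1 G-box) and HB12 (4), followed by HB1 and HB21 (2 each), and HB5, HB6, HB7 and HB53 (1 each). A G-box reads the same on both strands and so counts as an overlapping pair, so the order of HB40 and HB12 rests on this counting. The class I site CAATNATTG was found before HB3 alone, at -431, and in 3.44% of all windows of 1000 bases. These matches are letters in a window, and binding was not measured here.

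**Figure D1:**
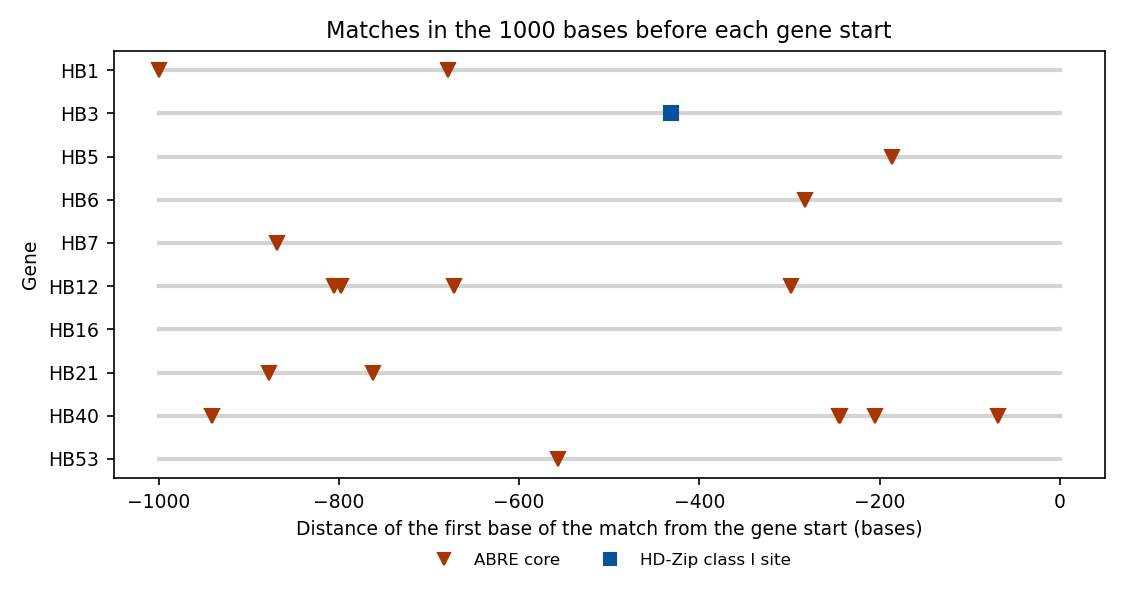
Positions of the ABA-responsive core and the class I site in the 1000 bases before the start of each of the 10 genes. The x axis is the distance from the gene start in bases. HB40 carries 5 ACGTG matches, of which an overlapping pair is 1 G-box, and HB12 carries 4, while HB3 and HB16 carry no ACGTG.

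Levels are given in TPM, a transcript abundance scaled for gene length and for the total of each sample, as deposited. Tests were run with limma on log2(TPM + 0.5), with Benjamini-Hochberg adjustment over all genes tested, and a gene was called where its adjusted p was under 0.05 and its log2 fold change was above 1 in size. Genes entered a comparison where all 3 samples of at least 1 of its groups reached 1 TPM. The sample labels do not say that the 3 samples of a group came from separate cultures, although the study's methods name independent experiments, and the p-values measure the spread between these samples.

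In mock-treated WT seedlings the members spanned a wide range of levels. HB6 was highest, at 134 ± 9.58 TPM (SD, n = 3), followed by HB5 at 110.0 ± 3.18 TPM, HB1 at 98.3 ± 2.18 TPM and HB16 at 68.7 ± 3.15 TPM, and the samples of these neighbours did not overlap. HB7 (17 ± 1.54 TPM), HB3 (8.98 ± 0.265 TPM) and HB12 (5.94 ± 0.585 TPM) came next, also without overlap. HB40 (0.577 ± 0.0548 TPM), HB53 (0.484 ± 0.268 TPM) and HB21 (0.337 ± 0.183 TPM) were lowest, their samples overlapped, and their order was not resolved. These 3 rested on 2 to 10 recovered reads per WT mock sample, so their mock levels carry a large counting error.

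**Figure D2:**
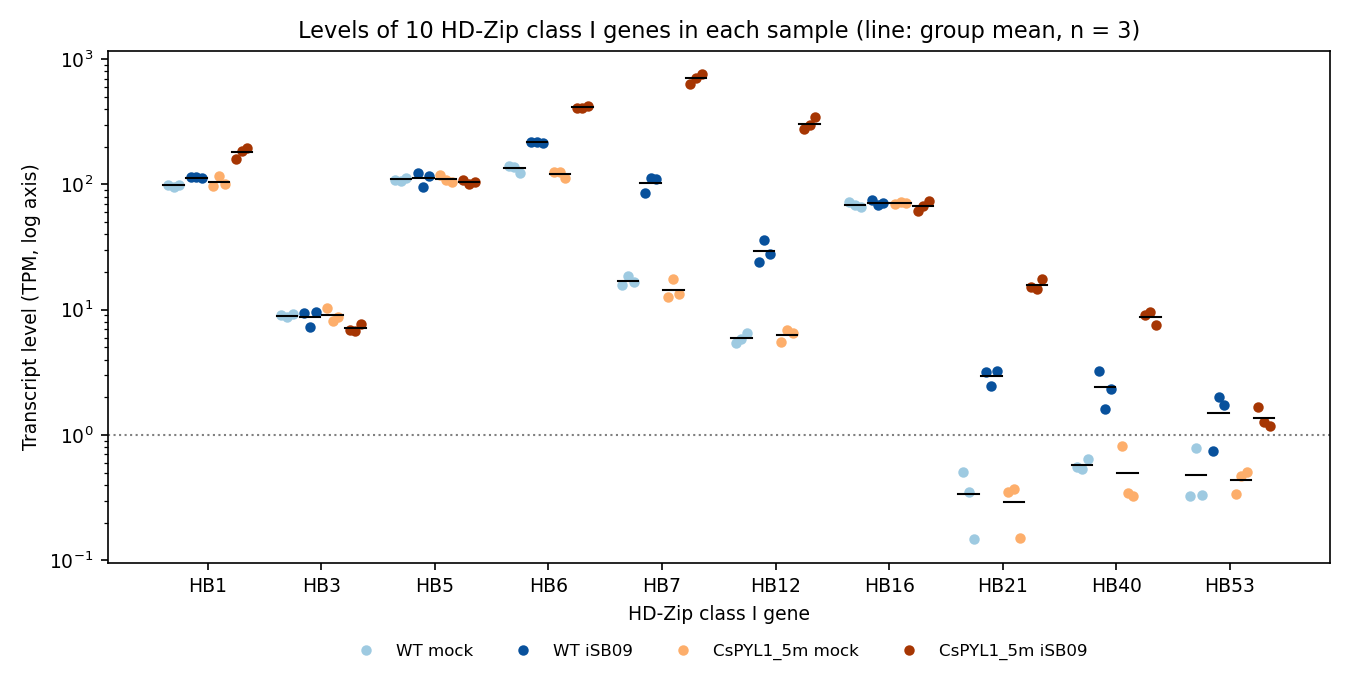
Level of each of the 10 genes in TPM (log axis) in every sample of the 4 groups, with the points as samples and the bars as group means. HB7, HB12, HB21 and HB40 stand higher with iSB09 in both genotypes, with HB7 at 632 to 760.4 TPM in CsPYL1_5m with iSB09, while HB5 and HB16 overlap between mock and iSB09.

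The question of the first comparison was what the agonist did in plants with their own receptors. In WT, 4 of the 9 members tested were called higher with iSB09 and 0 lower, beside 2.28% of all 19612 genes tested that were called higher and 1.54% called lower. They were HB7, HB12, HB21 and HB40. HB21 and HB40 passed the expression filter only through their iSB09 samples, so their place among the genes tested was not independent of the response. Of the 7 members at 1 TPM or more in all 3 mock samples, 2 were called higher.

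HB7 had the largest fitted change of the 9 in WT, although HB21 had a higher ratio of mean TPM (8.76, against 6.08 for HB7). Its level was 15.7, 18.7 and 16.5 TPM in the mock samples and 86.1, 113 and 111 TPM with iSB09. Every treated sample was above every mock sample, and the log2 fold change was 2.56 (SE 0.126, limma adjusted p = 0.00016). Its paralog HB12 had 5.43, 5.81 and 6.58 TPM with mock and 24.2, 36.1 and 28.0 TPM with iSB09. The groups were again apart, with a log2 fold change of 2.20 (SE 0.158, limma adjusted p = 6e-04).

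HB21 and HB40 started from near the detection floor. HB21 was at 0.511, 0.353 and 0.147 TPM with mock and at 3.16, 2.44 and 3.26 TPM with iSB09, a log2 fold change of 2.06 (SE 0.225, limma adjusted p = 0.0028). In recovered reads this was 7, 5 and 2 against 43, 33 and 44, a ratio of 8.55 per read of depth (95% exact interval 4.90 to 16.1, counting error only). HB40 was at 0.555, 0.537 and 0.640 TPM with mock and at 3.27, 1.61 and 2.34 TPM with iSB09, a log2 fold change of 1.39 (SE 0.238, limma adjusted p = 0.011). The call of HB40 was lost without WT mock replicate 2 (log2 fold change 1.37, limma adjusted p = 0.053) and without WT mock replicate 3 (1.43, adjusted p = 0.054). Under the processing alternatives that kept all samples, 3 to 4 members were called higher in WT. The pseudocount compresses the change of such low genes, and limma voom on recovered reads gave log2 fold changes of 3.09 for HB21 and 1.90 for HB40.

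HB6, the most abundant member, was at 140.0, 138 and 123 TPM with mock and at 217, 219.7 and 214 TPM with iSB09. The groups did not overlap and the limma adjusted p was 0.0031, but the log2 fold change of 0.70 (SE 0.079) was under the fold threshold. HB1, which acts in hypocotyl growth, was at 95.7 to 99.5 TPM with mock and at 112 to 114 TPM with iSB09, a log2 fold change of 0.20 (95% interval 0.05 to 0.36, limma adjusted p = 0.082). HB53 was not tested, because it did not reach 1 TPM in all 3 samples of either group. It had 0.328, 0.794 and 0.331 TPM with mock and 0.743, 2.0 and 1.75 TPM with iSB09, groups that overlapped, with an exact two-sided permutation p of 0.2, where 0.1 is the smallest that 3 against 3 samples allow. Without WT iSB09 replicate 1, its lowest iSB09 sample, it entered the test and was called (log2 fold change 1.30, limma adjusted p = 0.030). It then passed the filter only through its other iSB09 samples (2.0 and 1.75 TPM), so that call was not independent of the response.

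HB3, HB5 and HB16 showed no detectable response in WT, where their mock and iSB09 samples overlapped. HB5 was at 107 to 113 TPM with mock and 94.8 to 124 TPM with iSB09, HB16 at 65.7 to 72.0 TPM and 68.3 to 74.7 TPM, and HB3 at 8.69 to 9.21 TPM and 7.22 to 9.63 TPM. HB5, which acts in ABA responses of seedlings, had a log2 fold change of 0.02 (95% interval -0.24 to 0.27). HB16, known for a role in leaf growth, had 0.05 (95% interval -0.13 to 0.23), and HB3, a relative of HB20, had -0.04 (95% interval -0.36 to 0.27). These intervals leave room for changes smaller than the fold threshold.

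Without agonist the transgene was not associated with a detectable difference in these genes. Between the mock-treated genotypes 0 of the 7 members tested were called, with log2 fold changes of -0.23 to 0.09, beside 0.0512% of 19530 genes called higher and 0.0154% called lower (0.0666% in either direction). In limma 0 of the 7 had an unadjusted p under 0.05, and limma voom on recovered reads also called 0. The samples of the genotypes overlapped for every member. The widest interval toward a decrease was that of HB7, whose log2 fold change was -0.23 (95% interval -0.53 to 0.08, limma adjusted p = 0.66). HB21, HB40 and HB53 were not tested there, with mock means of 0.290, 0.495 and 0.441 TPM in CsPYL1_5m and exact permutation p of 0.9, 0.6 and 1.0 (two-sided, 3 against 3).

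In CsPYL1_5m, 5 of the 10 members were called higher with iSB09 and 0 lower, beside 9.17% of 19862 genes called higher and 8.35% called lower. HB21, HB40 and HB53 passed the filter there only through their iSB09 samples, and of the 7 members at 1 TPM or more in all 3 mock samples 3 were called higher (HB6, HB7 and HB12). After median-ratio scaling, the genes called over the whole table were 2150 higher and 1208 lower, where the values as deposited gave 1821 and 1659. That scaling moved the median of all genes by 0.15 on the log2 scale, from -0.16 to 0, and the 5 members stayed called.

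The paralogs HB7 and HB12 rose by nearly the same factor. HB7 was at 12.6, 17.7 and 13.3 TPM with mock and at 632, 708 and 760.4 TPM with iSB09, a ratio of means of 48.1 and a log2 fold change of 5.55 (SE 0.124, limma adjusted p = 2.8e-09). HB12 went from 5.51, 6.89 and 6.54 TPM to 276, 300.4 and 343 TPM, a ratio of means of 48.5 and a log2 fold change of 5.49 (SE 0.102, limma adjusted p = 1.2e-09). For both genes the lowest treated sample lay far above the highest mock sample. HB7 thereby became the most abundant of the 10, above HB6.

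HB21 and HB40, the bud dormancy genes, rose as well. HB21 was at 0.349, 0.369 and 0.151 TPM with mock and at 15.2, 14.6 and 17.5 TPM with iSB09, a log2 fold change of 4.37 (SE 0.144, limma adjusted p = 2.6e-08). In reads this was 7, 7 and 3 against 298, 273 and 287, a ratio of 53.6 per read of depth (95% exact interval 33.3 to 92.5). HB40 was at 0.813, 0.344 and 0.329 TPM with mock and at 9.08, 9.67 and 7.61 TPM with iSB09, a log2 fold change of 3.25 (SE 0.192, limma adjusted p = 8.6e-07) and a read ratio of 17.6 (95% exact interval 11.9 to 26.9). With limma voom on recovered reads the log2 fold changes were 5.71 and 4.18. The third gene of the same group, HB53, was at 0.337, 0.475 and 0.511 TPM with mock and at 1.66, 1.26 and 1.17 TPM with iSB09. Its groups did not overlap, and its log2 fold change of 0.98 (SE 0.173, limma adjusted p = 0.00091) lay just under the fold threshold, which it passed with median-ratio scaling (1.08), with a pseudocount of 0.1 (1.43) and with limma voom on recovered reads (1.57).

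HB6 was at 125, 126 and 112 TPM with mock and at 405, 407 and 424 TPM with iSB09. These groups were well apart, with a log2 fold change of 1.76 (SE 0.0667, limma adjusted p = 5.6e-08). HB1 was at 96.6, 117 and 100.4 TPM with mock and at 160.3, 185 and 195 TPM with iSB09, also without overlap, with a log2 fold change of 0.78 (SE 0.0969, limma adjusted p = 1e-04), under the fold threshold. HB1 lies on the minus strand and overlaps 3 annotated genes of the plus strand, MBD9 (8.64 to 13.5 TPM), AT3G01035 (1.82 to 7.29 TPM) and AT3G01475 (at most 0.409 TPM), and reads were counted without regard to strand, so its values are uncertain to that extent. No other member overlaps an annotated gene.

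HB3, HB5 and HB16 were the members without a rise in CsPYL1_5m. HB5 had 118, 109 and 105 TPM with mock and 109, 99.9 and 104 TPM with iSB09, and HB16 had 69.2, 72.7 and 71.6 TPM against 61.8, 66.8 and 73.6 TPM. Their samples overlapped and their log2 fold changes were both -0.08 (limma adjusted p = 0.31 and 0.36), values that became 0.08 for both with median-ratio scaling. HB3 had 10.3, 8.10 and 8.71 TPM with mock and 6.93, 6.82 and 7.71 TPM with iSB09, with a log2 fold change of -0.31 (SE 0.105, limma adjusted p = 0.027), under the fold threshold and set beside an all-gene median of -0.16.

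**Figure D3:**
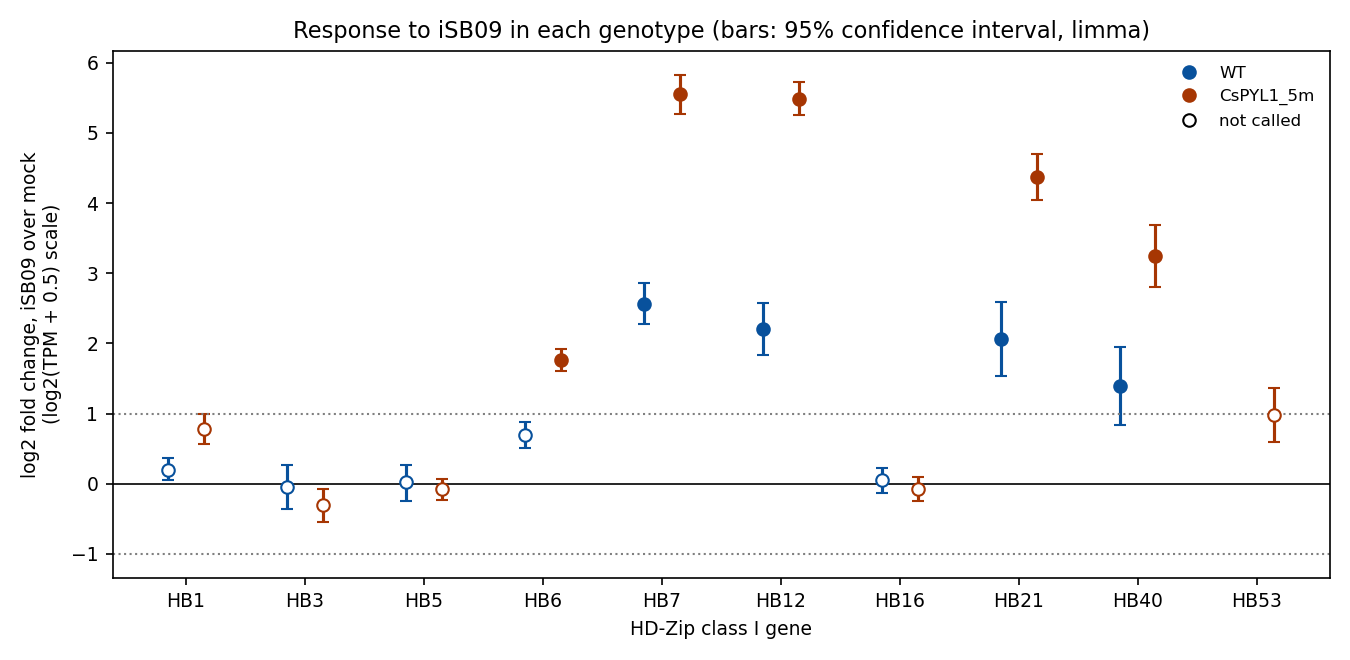
Log2 fold change of each member with iSB09 against mock in WT and in CsPYL1_5m, on the log2(TPM + 0.5) scale, with 95% intervals. HB7 and HB12 stand at 5.55 and 5.49 in CsPYL1_5m and at 2.56 and 2.20 in WT, and HB5 and HB16 lie near 0 in both.

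Whether the response differed between genotypes was tested as the interaction over all 12 samples. For 5 of the 10 members the response in CsPYL1_5m was called higher, beside 6.03% of 20081 genes, and for 0 it was called lower, beside 3.6% (1211 and 722 genes, or 1489 and 466 with median-ratio scaling). HB21, HB40 and HB53 entered this fit too only through iSB09 samples, and of the other 7 members 3 were called. The added log2 change was 3.29 for HB12 (SE 0.198, limma adjusted p = 4.8e-07), 2.99 for HB7 (SE 0.193, adjusted p = 8.1e-07), 2.31 for HB21 (SE 0.266, adjusted p = 7.2e-05), 1.86 for HB40 (SE 0.32, adjusted p = 0.0012) and 1.07 for HB6 (SE 0.098, adjusted p = 1.3e-05). For HB1 it was 0.58 (limma adjusted p = 0.0040), under the fold threshold. For HB53 it was -0.01 (95% interval -0.84 to 0.82, limma adjusted p = 0.99), an interval too wide to show that the responses were alike. HB5 (-0.10, 95% interval -0.38 to 0.18) and HB16 (-0.13, 95% interval -0.35 to 0.09) were not shown to differ, and the values of HB53, HB5 and HB16 took a positive sign with median-ratio scaling. For HB3 the difference was -0.27 (limma adjusted p = 0.25).

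With iSB09 in both genotypes, 4 of the 10 members were called higher in CsPYL1_5m than in WT, beside 6.3% of 19656 genes, and 0 lower, beside 4.49% (1239 and 882 genes, or 1545 and 556 with median-ratio scaling). These were HB12 (3.37, limma adjusted p = 1.4e-05), HB7 (2.76, adjusted p = 1.5e-05), HB21 (2.24, adjusted p = 4.3e-05) and HB40 (1.71, adjusted p = 0.00087), and the samples of each did not overlap. HB6 was 1.90 times as high in the ratio of means, with a log2 fold change of 0.92 (SE 0.0602, limma adjusted p = 6.4e-05) that was called only with median-ratio scaling (1.1). HB1 had a log2 fold change of 0.66 (limma adjusted p = 0.00082), under the fold threshold, and HB3 (-0.27), HB5 (-0.09) and HB16 (-0.08) had adjusted p of 0.13, 0.50 and 0.43. HB53 was not called, with a ratio of means of 0.909 and a log2 fold change of -0.05 (95% interval -0.72 to 0.62). The comparisons share their mock and iSB09 samples and are not independent of each other.

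These changes altered which class I genes made up the mRNA of the group. The summed level of the 10 was 444 ± 8.98 TPM in WT mock, 661 ± 6.96 TPM in WT with iSB09, 439 ± 20.3 TPM in CsPYL1_5m mock and 1803 ± 129 TPM in CsPYL1_5m with iSB09 (SD, n = 3 each). In CsPYL1_5m, HB7 went from 3.31% of that sum to 38.8%, and HB12 from 1.44% to 17%. HB5 went from 25.2% to 5.82% and HB16 from 16.2% to 3.74% although their levels did not detectably change. In WT, HB6 stayed the largest share, at 30.1% with mock and 32.8% with iSB09, and HB7 went from 3.82% to 15.6%. The order in CsPYL1_5m with iSB09 was HB7, HB6, HB12, HB1, HB5, HB16 and HB21 without overlap between neighbours, then HB40 and HB3, which overlapped, and HB53.

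**Figure D4:**
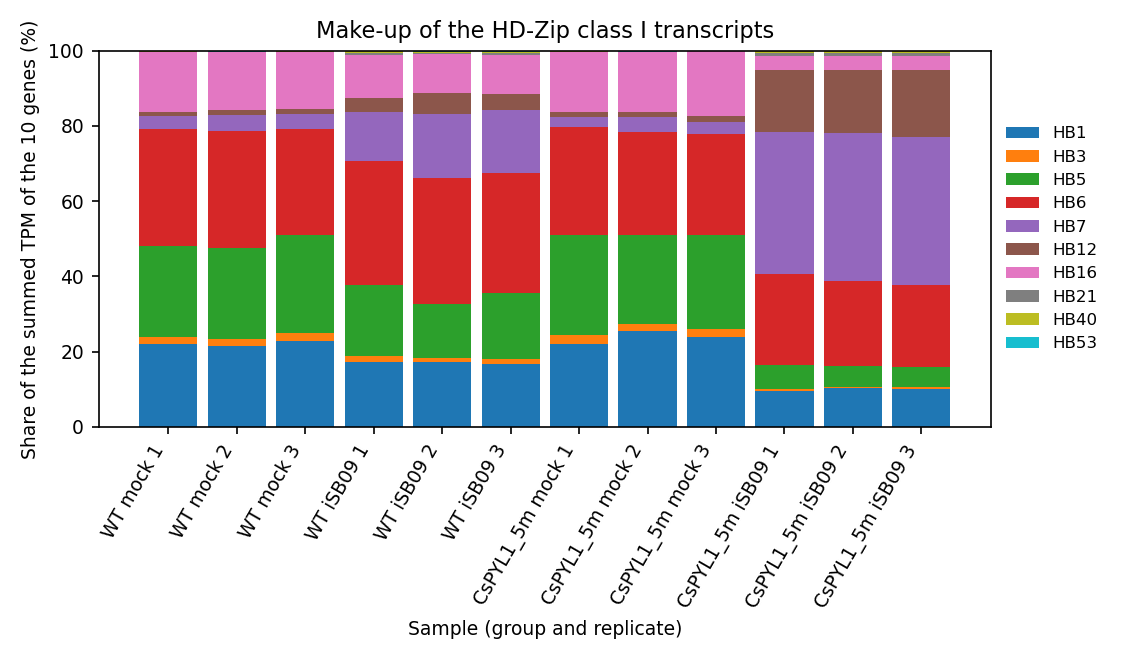
Share of the summed TPM of the 10 genes held by each, in percent, in each of the 12 samples. As the mean of 3 samples, HB7 holds 3.31% in CsPYL1_5m mock and 38.8% with iSB09, while HB5 goes from 25.2% to 5.82%.

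Other HD-Zip genes of classes I, II and III were read from lists. Of the 7 other class I genes 4 were tested, with 0 called by limma in WT. There HB13 had 0.53 (limma adjusted p = 0.012), under the fold threshold, and HB23 had -0.44 (adjusted p = 0.078). In CsPYL1_5m 1 was called lower, beside 8.35% of all genes called lower there. This was HB52, with a log2 fold change of -1.34 (SE 0.21, limma adjusted p = 0.00042). Of 10 class II genes 9 were tested in each genotype, with 0 called by limma in WT and 0 at an unadjusted p under 0.05. In CsPYL1_5m HB17 (2.71, limma adjusted p = 3.3e-07) and HAT22 (1.44, adjusted p = 2.1e-07) rose and HAT1 (-1.52, adjusted p = 1.1e-05) fell. So 2 were called higher and 1 lower, beside 9.17% and 8.35% of all genes. HB18 was among the 9 tested there only through its iSB09 samples (1.52 to 1.91 TPM, against 0.801 to 1.08 TPM with mock). Of the 5 class III genes, known for shoot and vascular patterning, 0 were called by limma in WT, 0 had an unadjusted p under 0.05 there, and REV fell in CsPYL1_5m (-1.06, limma adjusted p = 6.2e-06), beside 8.35% of all genes called lower. In CsPYL1_5m PHB (-0.87, limma adjusted p = 7.2e-06), HB8 (-0.83, adjusted p = 4.4e-05) and PHV (-0.62, adjusted p = 6.4e-05) were under the fold threshold. HB15 had -0.09, and the median of all genes there was -0.16. The 10 members made up 90.4% of the summed level of all 17 class I genes in WT mock and 97.9% in CsPYL1_5m with iSB09.

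Genes that the members are known to act with or on were read from a list of 19, of which 6 were called higher and 1 lower among 16 tested in WT, and 10 higher and 2 lower among 18 tested in CsPYL1_5m. Over all genes 2.28% were called higher and 1.54% lower in WT, and 9.17% and 8.35% in CsPYL1_5m. Among the 9 clade A phosphatases, the ABA co-receptors, HAI1, HAI2, HAI3 and AHG1 were under 1 TPM in CsPYL1_5m mock and entered the test only through their iSB09 samples, with log2 fold changes of 8.51, 7.86, 7.04 and 1.95. The 5 that were at 1 TPM or more with mock were all called higher in CsPYL1_5m, from 2.34 (HAB2) to 5.52 (ABI2), and 4 of these 5 were called higher in WT. The other 2 of the 6 calls in WT were HAI1 and HAI2, which entered there too only through their iSB09 samples. ABI1, the partner of HB6, rose by a log2 fold change of 1.43 in WT (limma adjusted p = 0.00084) and 3.37 in CsPYL1_5m (adjusted p = 6.8e-10). The receptor gene PYL5 fell in both genotypes (-1.65, limma adjusted p = 0.0014 in WT; -3.56, adjusted p = 1.2e-08 in CsPYL1_5m), and PYL8 fell in CsPYL1_5m (-1.65, adjusted p = 1.4e-06) with -0.05 in WT. The BPM genes, whose products target HB6 for degradation, gave 0 calls by limma among 6 in either genotype and 0 at an unadjusted p under 0.05, with log2 fold changes of -0.12 to 0.16 in CsPYL1_5m.

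NCED3, the ABA synthesis gene that HB21, HB40 and HB53 raise in buds, had 0.542, 0.675 and 0.607 TPM in the CsPYL1_5m mock samples and 12.6, 16.3 and 15.9 TPM with iSB09. The groups were apart, and NCED3 rose with a log2 fold change of 3.79 (SE 0.127, limma adjusted p = 2.9e-08). It passed the filter only through its iSB09 samples, in CsPYL1_5m and also in WT (mock 0.629 to 0.998 TPM, iSB09 1.06 to 2.25 TPM). In WT its log2 fold change was 0.70 (limma adjusted p = 0.11), and the difference between genotypes was 3.09 (SE 0.286, adjusted p = 1.4e-05). BRC1, which acts upstream of these factors in buds, was at most 0.318 TPM in any sample and was not tested.

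The genes whose levels followed those of the members most closely over the 12 samples were found by Pearson correlation of log2(TPM + 0.5) among 20081 genes. For HB7 they were FBH3, P5CS1 and HSFA6B (r = 0.998 each), and 57 genes reached 0.99. For HB12 they were AT1G69480, ABI1 and AT3G53960 (r = 0.999 each), and 120 genes reached 0.99. For HB6 they were ERD14 (0.997), HB21 and HAI1 (0.996 each), and 42 genes reached 0.99. The points share the same 4 groups and the same 12 libraries, so these values describe a shared group pattern.

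Sequences shared between paralogs could divide reads among them, and the longest exact exonic stretch that a member shared with another class I gene was 20 to 30 bases. It was 21 bases between HB7 and HB12, 23 bases between HB40 and HB53, 28 bases between HB3 and HB20 and 30 bases between HB21 and HB51.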

How the data were processed

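Messenger RNA of 12 seedling samples was sequenced by the authors as paired reads, trimmed with cutadapt, mapped with HISAT2 to the TAIR10 genome and counted per gene with HTSeq-count on the Araport11 annotation, without strand; tool versions are not given in the sources used here. The deposited TPM values (transcript abundances scaled for gene length and sample total) and the deposited RPKM values (reads scaled for length and depth), for 37336 genes, are the authors' normalization of those counts. TPM was used for levels and tests, and RPKM for an alternative and for depth: RPKM steps and exon lengths (TAIR10.1 RefSeq, 37051 IDs matched) gave whole reads for 72.6% of detected genes within 0.05 of a read. For the reads printed here, HB40 and HB5 took the nearest length that gave whole reads. For limma voom, reads of every gene were taken at the annotated length and rounded to whole numbers.

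Groups came from the sample labels. limma 3.58.1 (R 4.3.3), its prior variance following mean expression, was fitted to log2(TPM + 0.5) for genes at 1 TPM or more in all 3 samples of at least 1 group. Pairs of groups were fitted on their own 6 samples, and the difference between responses on all 12. Permutation tests are exact. Intervals of reads cover counting error only. Alternatives were other pseudocounts, filters, scalings, the RPKM table, no variance trend, 1 fit of all samples, a replicate block and each sample left out; limma voom on recovered reads was added after seeing the data. The study's methods name independent experiments but do not tie the replicate numbers to them. Deviations of same-numbered mock and iSB09 samples had correlations of 0.155, 0.307 and 0.23 in WT and 0.148, -0.0132 and -0.187 in CsPYL1_5m. Samples of different number were not compared, so whether the numbers pair was not settled. The fits were tested on simulated data. The genes named outside the 10 members were the called genes of each list, the partners named with them, and the 3 genes most like HB6, HB7 and HB12. The members and lists were chosen with earlier results of these data known. Promoter sequences were read from TAIR10.1 with gene starts from RefSeq. No sequence of an encoded protein was used here.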

Additional observations from a re-analysis of the deposited data

Results flagged for a closer look

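The response to iSB09 was called higher in CsPYL1_5m than in WT for 5 of the 10 members, beside 6.03% of 20081 genes. The test was limma's interaction over all 12 samples with Benjamini-Hochberg adjustment. HB21, HB40 and HB53 entered this fit only through iSB09 samples, and of the other 7 members 3 were called. The log2 fold change in CsPYL1_5m exceeded that in WT by 3.29 for HB12 (5.49 against 2.20), by 2.99 for HB7 (5.55 against 2.56), by 2.31 for HB21 (4.37 against 2.06), by 1.86 for HB40 (3.25 against 1.39) and by 1.07 for HB6 (1.76 against 0.70). In both genotypes all 3 treated samples of each of these genes were above all 3 mock samples. The genes were called on these same samples, so this separation is no independent support. The share of all genes without overlap is not given here. All CsPYL1_5m samples were sequenced more deeply than all WT samples, so the genotype and the depth cannot be told apart.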

How the results depend on the processing

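Of 872 fold changes of members recomputed under alternatives, 818 kept their direction and side of the threshold and 41 changed sign, and of 190 counts of members called 175 were equal to those given above. With median-ratio scaling, alone or with the replicate block, the log2 values of HB5 and HB16 became 0.08 and 0.08 for iSB09 in CsPYL1_5m; HB5, HB16 and HB53 became 0.08, 0.09 and 0.08 between genotypes with iSB09, and 0.07, 0.04 and 0.12 for the difference between responses. HB53 was 0.05 between genotypes with iSB09 and 0.06 for the difference with quantile normalization, and 0.01 and 0.06 with limma voom. HB5 in WT was -0.02 with the RPKM table and with limma voom. Over all genes, the mock comparison gave 5 higher and 1 lower without a filter, 6 and 1 without a variance trend, 5 and 1 with the block and median-ratio scaling, and 1 and 1 with limma voom, against 10 and 3. With median-ratio scaling the genes lower in CsPYL1_5m with iSB09 numbered 556 (557 with the block), against 882, and those with a smaller response numbered 466, against 722. The replicate block alone changed no call of a member and gave 481 higher and 326 lower over all genes in WT, against 448 and 302. The cause was not tested.

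Leaving out 1 sample at a time gave 254 to 570 genes higher and 166 to 375 lower in WT, with 289 and 198 without WT mock replicate 2 and 254 and 166 without WT mock replicate 3, and 3 to 5 members higher. The 5 included HB53, which entered only without WT iSB09 replicate 1, its lowest iSB09 sample. Leaving out 1 sample gave 4 to 11 higher and 1 to 3 lower in mock. HB3 then ranged from -0.11 to 0.08 and HB5 from -0.06 to 0.13 in WT, and from -0.09 to 0.07 and -0.04 to 0.05 in mock; HB53 ranged from -0.36 to 0.15 between genotypes with iSB09 and from -0.32 to 0.18 for the difference. Depth limits HB21, HB40 and HB53 in mock, where 3 reads equal 0.15 to 0.25 TPM.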
